A study of Cavia porcellus with 12 samples.

Results

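Respiratory complex I and its assembly factors were followed in the liver of guinea pigs with non-alcoholic steatohepatitis (NASH) and of controls. The genes were taken by name, as every row of the deposited gene table whose symbol begins with NDUF, which gave 45 of 11896 symbols. That table leaves out rows whose counts over all animals add up to under 200, so all 45 had passed this filter, and NDUF rows below it are not described. Of these, 8 were assembly factors (NDUFAF) and 37 carried other NDUF names, and 33 of the 37 were genes of complex I subunits counted once each. The other 4 rows were *NDUFA4* and *NDUFA4L2*, which are described separately, *NDUFS4.1*, which by its name is taken as a further row of the symbol *NDUFS4* although its locus was not settled, and *NDUFC2.KCTD14*, which stands on the same count row as *NDUFC2*. The 7 mitochondrially encoded subunits and *NDUFA1*, *NDUFA11*, *NDUFB1* and *NDUFV3* were not analysed here.

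Liver mRNA was sequenced from 12 female Dunkin Hartley guinea pigs, 6 with NASH after a high-fat diet for 25 weeks and 6 healthy controls on chow for the same time. The NASH animals were taken from high-fat-fed animals with bridging fibrosis, and the controls were drawn at random from animals without NASH and fibrosis. The animals entered the study at an age of 10 weeks, and the high-fat diet also held sucrose and cholesterol. Each sample was a snap-frozen piece of the left lateral lobe of a liver that had not been perfused, so blood could remain in it. Each animal was a sample of its own and is named by its number in the labels. An animal had between 16980274 and 33091460 counts. A single diet model in females limits the comparison, and diet and disease state cannot be told apart because they changed together.

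Complex I, NADH:ubiquinone oxidoreductase, is the main entry point of electrons into the mitochondrial respiratory chain. It takes electrons from NADH onto a flavin, passes them along a row of iron-sulphur clusters to ubiquinone, and pumps protons across the inner mitochondrial membrane. The complex is shaped like an L. The arm in the matrix is made of the N module, which oxidises NADH, and the Q module, which reduces ubiquinone, and the arm in the membrane has a proximal and a distal part. A few core subunits carry the cofactors and the catalysis, the many supernumerary subunits surround them, and assembly factors help build the complex but are absent from the finished enzyme. In liver, NADH from fatty acid oxidation and the citric acid cycle is reoxidised mostly here.

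Complex I subunit genes were lower in NASH in nearly every member when counts were scaled for composition with TMM factors. By edgeR's quasi-likelihood test 29 of 33 subunit genes fell, 0 rose and 4 did not pass an adjusted p of 0.05, and the fitted log2 fold change was below 0 in 33 of 33, although scaling to library size alone turned the sign in 13 of them. The background was high, since 26% of all 11896 symbols were called lower and 27.9% higher. The subunits had a median log2 fold change of -0.52, from -0.81 for *NDUFC2* to -0.11 for *NDUFV2*, while the median of all genes was 0.002. Of the 33 subunits, 26 had every NASH animal below every control, against 15.3% of all symbols, and 0 had every NASH animal above, against 18.4%. The summed level of the 33 subunits ran from 2369 to 2831 CPM (counts per 1000000 of the TMM-scaled library) in controls, with a mean of 2614 ± 154 (SD, n = 6). In NASH it ran from 1695 to 1910 CPM with a mean of 1813 ± 69.8 (SD, n = 6), so that the groups did not overlap and the means differed by -30.7%.

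**Figure D1:**
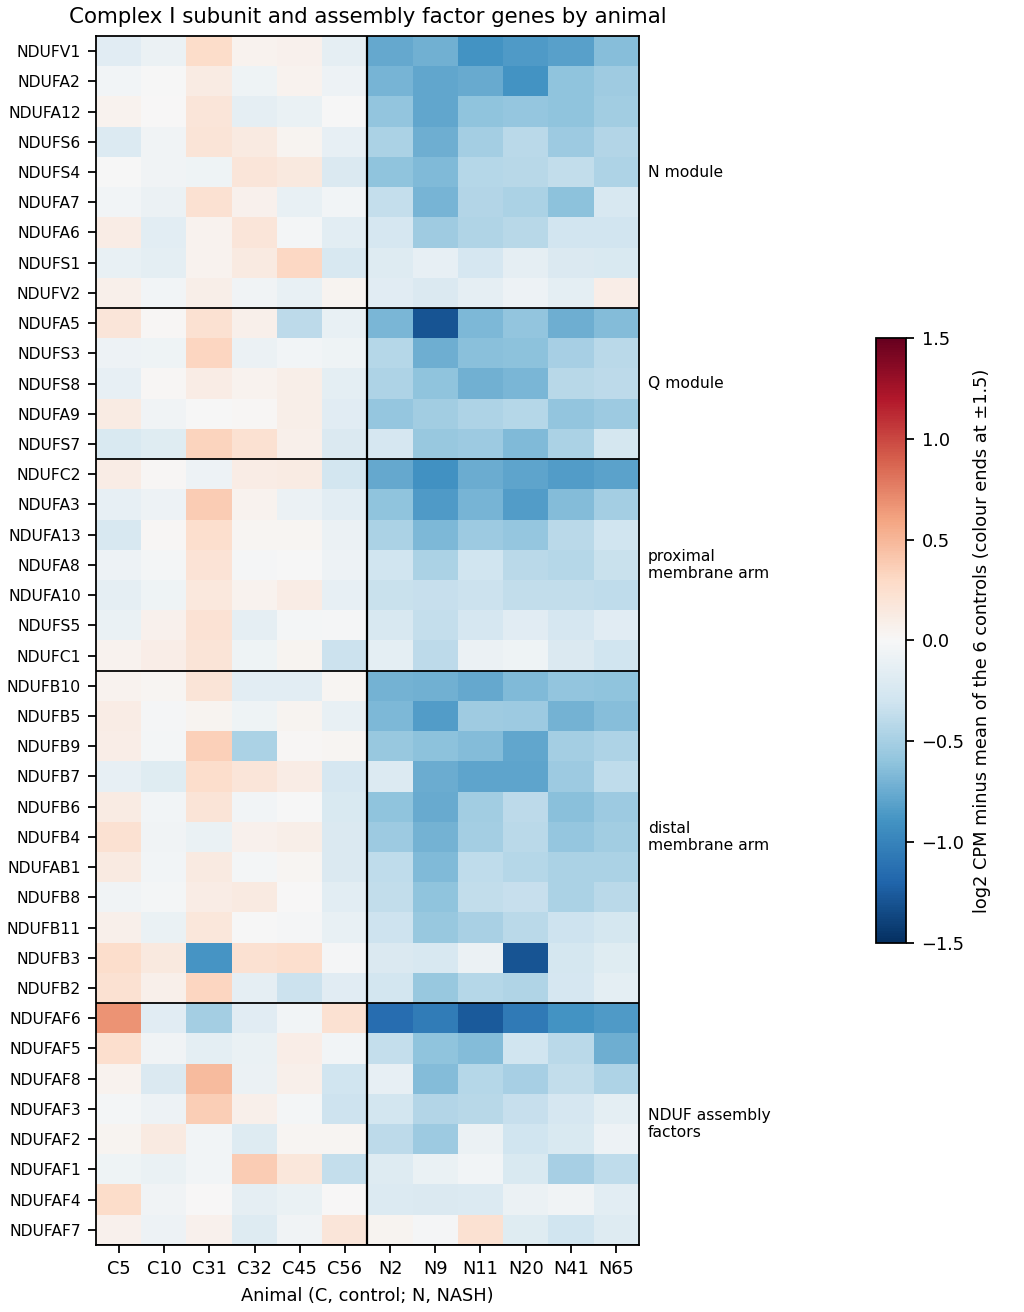
Levels of 32 of the 33 complex I subunit genes and 8 NDUF assembly factors (rows, by module) in each of the 12 animals (columns), as log2 CPM minus the mean of the 6 controls; blue is lower and red higher than that mean. With TMM scaling most subunit rows are blue in all 6 NASH animals, NDUFB3 is low in control 31 and NASH 20, and several assembly factor rows are pale; with library size alone 13 of the subunits and 6 assembly factors change sign.

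The scaling matters for this comparison. The TMM factors of the controls ran from 0.804 to 0.875, and those of the NASH animals from 1.12 to 1.24. As a share of all raw counts, the 33 subunits made up 0.207% to 0.248% of an animal's counts in controls and 0.197% to 0.229% in NASH, and these ranges overlapped. With library size alone, edgeR called 6 subunits lower (among them *NDUFC2*, *NDUFV1*, *NDUFB5*, *NDUFB10* and *NDUFA2*) and 4 higher (*NDUFV2*, *NDUFS1*, *NDUFS5* and *NDUFC1*), against 7.66% of all symbols lower and 63.9% higher. That scaling moved the median of all genes to 0.48 and that of the subunits to -0.05, and since a change of scaling factors moves all genes by nearly the same amount, the distance of 0.52 between them stayed by construction. The fold changes given here are therefore relative to the bulk of the genes. Every direction and count that follows is with TMM scaling unless another is named, and the 13 subunits whose sign turned with library size alone were *NDUFA6*, *NDUFA7*, *NDUFA8*, *NDUFA10*, *NDUFAB1*, *NDUFB2*, *NDUFB3*, *NDUFB8*, *NDUFB11*, *NDUFC1*, *NDUFS1*, *NDUFS5* and *NDUFV2*.

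**Figure D2:**
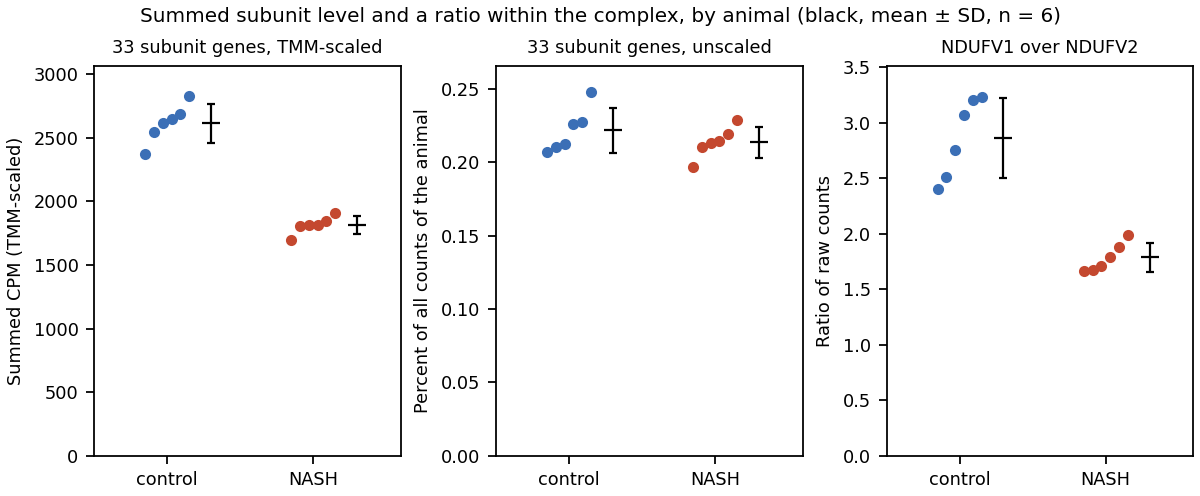
Summed level of the 33 subunit genes as TMM-scaled CPM (left), the same genes as percent of all raw counts (middle) and the ratio of NDUFV1 to NDUFV2 counts (right); each point is an animal and the black mark is the mean ± SD of 6. The groups are apart on the left and on the right, which needs no scaling, and overlap in the middle.

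The makeup of the tissue differed between the groups as well. Of 9 hepatocyte markers 8 were lower and 0 higher in NASH, and their summed level ran from 104600 to 128500 CPM in controls and from 44970 to 68480 in NASH. Of 5 cholangiocyte markers 5 were higher (summed 73.2 to 115 CPM in controls and 302 to 539 in NASH), and of 8 stellate cell and fibroblast markers 7 were higher (598 to 712 and 1185 to 2437 CPM). All 4 erythroid markers were higher (57.4 to 172 and 427 to 4531 CPM). Of 5 macrophage markers 2 were higher and 1 lower (312 to 386 and 399 to 469 CPM), of 6 endothelial markers 3 were higher and 1 lower (460 to 596 and 503 to 737 CPM), and of 6 T cell markers 1 was higher and 1 lower (56.6 to 111 and 33.1 to 61.2 CPM). All these counts stand against 26% of all symbols called lower and 27.9% called higher. Under library size alone, where the shares were 7.66% and 63.9%, 4 hepatocyte markers were lower and 1 higher (*ASGR1*), 5 cholangiocyte, 7 stellate cell and fibroblast and 4 erythroid markers were higher, and 4 macrophage, 4 endothelial and 2 T cell markers were higher with 1 lower in each of these 3 lists. Their part in the results on complex I was not tested. In whole liver, fewer cells of a type and less RNA per cell cannot be told apart.

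In the N module, 7 of 9 genes fell, against 26% of all symbols, and the median log2 fold change was -0.49. Scaled to library size alone, 2 were lower and 2 higher, against 7.66% and 63.9% of all symbols, and the median was -0.02. Of its 3 core subunits, *NDUFV1* passed the test and *NDUFV2* and *NDUFS1* did not. *NDUFV1* encodes the subunit that binds NADH and the flavin. *NDUFV1* had control values of 160 to 218 CPM (median 179) and NASH values of 97.0 to 116 CPM (median 104). Its groups did not overlap, and it fell by 0.79 on the log2 scale (SE 0.08, adjusted p = 5.89e-06, edgeR). *NDUFV2*, its partner in the NADH-oxidising tip and the holder of an iron-sulphur cluster, stood at 58.9 to 67.3 CPM in the controls, median 63.4, and at 54.7 to 67.8 CPM in the NASH animals, median 57.5. The highest NASH animal stood above every control, and the fitted log2 fold change of -0.11 (SE 0.07) had an adjusted p of 0.193 in edgeR. *NDUFS1*, the largest subunit of the module and the carrier of several of its clusters, ran from 90.9 to 133 CPM in controls (median 106) and from 90.1 to 98.5 CPM in NASH (median 93.3). Here the controls were widely spread and reached down into the NASH range, and the log2 fold change came to -0.20 (SE 0.09, adjusted p = 0.0688, edgeR). Without control 56 the adjusted p of *NDUFS1* was 0.0255, and with DESeq2 it was 0.0494.

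*NDUFV1* and *NDUFV2* sit side by side in the enzyme. Their raw counts were divided within each animal, which needs no scaling factor. The ratio ran from 2.41 to 3.23 in controls (mean 2.86 ± 0.358, SD, n = 6). In NASH it ran from 1.67 to 1.99 (mean 1.79 ± 0.130, SD, n = 6), and the groups did not overlap. The pair was chosen after its values were seen, so no test is given. The ratio is not corrected for transcript length and shows only that the 2 genes changed unequally.

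The supernumerary subunits of the N module all fell. *NDUFA2* had the lowest fold change among them, with 53.0 to 61 CPM in controls (median 54.8) and 29.9 to 38.6 in NASH (median 33.6). No NASH animal reached a control, and *NDUFA2* fell by 0.71 on the log2 scale (SE 0.07, adjusted p = 4.41e-06, edgeR). The remaining ones were *NDUFA12* (log2 fold change -0.62), *NDUFS6* (-0.52), *NDUFS4* (-0.49), *NDUFA7* (-0.47) and *NDUFA6* (-0.38). *NDUFS4*, *NDUFS6* and *NDUFA12* are needed for the late steps in which the N module is joined to the rest, and *NDUFA6* holds the acyl carrier protein in the matrix arm. Each of these 5 genes had all 6 NASH animals below all 6 controls. The count row of *NDUFA7* also stands under a clone-based symbol, so its reads cannot be given to *NDUFA7* alone.

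All 6 genes of the Q module fell, with a median log2 fold change of -0.55, and in each of them the groups were apart, against 26% of all symbols called lower and 15.3% lower without overlap. Their median was -0.08 with library size alone, where 1 was called lower and 0 higher (7.66% and 63.9% of all symbols). *NDUFS3*, an early building block of the arm, stood at 46.2 to 61.3 CPM in the controls, median 46.7, and at 29.5 to 36.8 CPM in the NASH animals, median 33.2. Control 31 stood well above the other controls, and the log2 fold change was -0.56 (SE 0.09, adjusted p = 0.000162, edgeR).

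*NDUFS8* and *NDUFS7* carry the last iron-sulphur clusters before ubiquinone. *NDUFS8* ran from 70.5 to 84.1 CPM in controls (median 79.7) and from 47.1 to 59.3 CPM in NASH (median 53.8), and the log2 fold change came to -0.55 (SE 0.08, adjusted p = 7.32e-05, edgeR). *NDUFS7* had control values of 30.7 to 45.2 CPM (median 34.8) and NASH values of 22.7 to 30.3 CPM (median 25.3). The highest NASH animal came close to the lowest control without reaching it, and the log2 fold change of *NDUFS7* was -0.47 (SE 0.12, adjusted p = 0.00437, edgeR). *NDUFA5*, a supernumerary subunit on the outside of the arm, stood at 55.9 to 86.0 CPM in the controls, median 75.7, and at 29.8 to 48.7 CPM in the NASH animals, median 45.7. NASH 9 was far below the other NASH animals, and the log2 fold change was -0.77 (SE 0.13, adjusted p = 0.000272, edgeR). *NDUFA9*, which binds NADPH near the quinone site, had a log2 fold change of -0.52.

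**Figure D3:**
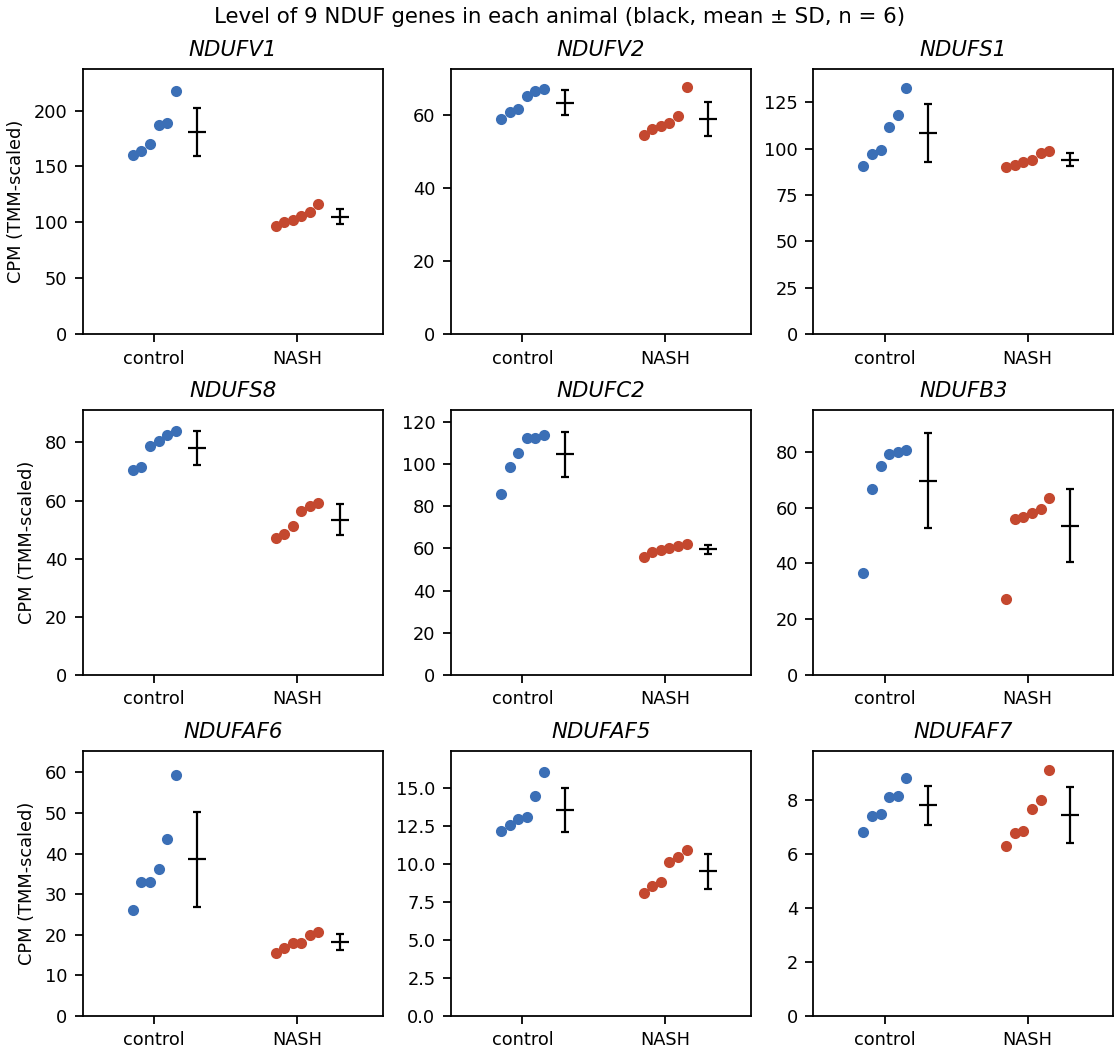
TMM-scaled CPM of 9 NDUF genes in each animal (points) with the group mean ± SD of 6 (black), each axis starting at 0. NDUFV1, NDUFS8, NDUFC2, NDUFAF6 and NDUFAF5 have no overlap between groups, while NDUFV2, NDUFS1, NDUFB3 and NDUFAF7 overlap; with library size alone NDUFV2, NDUFS1, NDUFB3 and NDUFAF7 are fitted higher in NASH.

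In the proximal part of the membrane arm, 6 of 7 genes fell, against 26% of all symbols, and the median of -0.38 was the nearest to 0 of the modules. It turned to 0.10 with library size alone, where 1 was lower and 2 higher (7.66% and 63.9% of all symbols). The proximal part held both the gene with the lowest fold change of all subunits and some of those nearest to 0. *NDUFC2*, a small membrane subunit, ran from 86.0 to 114 CPM in controls (median 109) and from 55.7 to 62.2 CPM in NASH (median 59.8). The groups were far apart, and *NDUFC2* fell by 0.81 on the log2 scale (SE 0.07, adjusted p = 1.88e-06, edgeR). Its count row carries the read-through symbol *NDUFC2.KCTD14* too. *NDUFA3* had control values of 64.0 to 92.4 CPM (median 67.3) and NASH values of 39.4 to 49.96 CPM (median 44.5). No NASH animal reached the lowest control, and *NDUFA3* fell by 0.70 on the log2 scale (SE 0.10, adjusted p = 6.9e-05, edgeR).

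*NDUFC1*, named next to *NDUFC2* and also a small membrane subunit, did not pass the test. *NDUFC1* stood at 26.8 to 38.2 CPM in the controls, median 34.7, and at 25.5 to 31.95 CPM in the NASH animals, median 29.5. The groups overlapped, and the log2 fold change of -0.21 (SE 0.09) had an adjusted p of 0.0701 in edgeR, which became 0.013 without control 56. *NDUFS5*, a subunit on the intermembrane side, ran from 47.3 to 60.7 CPM in controls (median 51.3) and from 40.6 to 46.4 CPM in NASH (median 43.9). The gap between the groups was narrow, and *NDUFS5* fell by 0.24 on the log2 scale (SE 0.07, adjusted p = 0.00984, edgeR). With upper-quartile scaling its adjusted p was 0.0629, and over every row with at least 1 count it was 0.122. *NDUFA13*, also known as GRIM-19, had a log2 fold change of -0.50 and *NDUFA8* of -0.38, both with the groups apart. *NDUFA10*, which resembles nucleoside kinases, stood at 82.5 to 101 CPM in the controls, median 90.2, and at 69.5 to 72.4 CPM in the NASH animals, median 70.9. No NASH animal reached a control, and *NDUFA10* fell by 0.36 on the log2 scale (SE 0.06, adjusted p = 0.000408, edgeR).

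In the distal part of the membrane arm, 10 of 11 genes fell, with a median log2 fold change of -0.55, and 7 of the 11 had no overlap between groups, against 26% and 15.3% of all symbols. The median was -0.07 with library size alone, where 2 were lower and 0 higher (7.66% and 63.9% of all symbols). *NDUFB10*, which sits on the intermembrane face, had control values of 72.1 to 92.5 CPM (median 82.5) and NASH values of 47.5 to 53.7 CPM (median 50.1). All NASH animals were below all controls, and *NDUFB10* fell by 0.68 on the log2 scale (SE 0.07, adjusted p = 5.64e-06, edgeR). *NDUFB5* (log2 fold change -0.65), *NDUFB6* (-0.58), *NDUFB4* (-0.55), *NDUFB8* (-0.43) and *NDUFB11* (-0.39) were alike in that their groups were apart. *NDUFB8*, whose protein is widely used as a marker of assembled complex I, shares its count row with a clone-based symbol. *NDUFB9* (-0.61), *NDUFB7* (-0.58) and *NDUFB2* (-0.36) also passed the test, but in these 3 genes at least 1 NASH animal was above the lowest control. *NDUFB2* did not pass with control 31 and NASH 20 left out, when its adjusted p was 0.0745, or over every row with at least 1 count, when it was 0.0791.

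*NDUFAB1* is the mitochondrial acyl carrier protein, which serves complex I, fatty acid synthesis in the mitochondrion and iron-sulphur cluster assembly. *NDUFAB1* stood at 57.3 to 73.4 CPM in the controls, median 66.9, and at 42.4 to 51.4 CPM in the NASH animals, median 49.0. The groups were apart, and *NDUFAB1* fell by 0.47 on the log2 scale (SE 0.08, adjusted p = 0.000176, edgeR).

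*NDUFB3*, a single-span membrane subunit, was the only gene of the distal part that did not pass the test. *NDUFB3* ran from 36.6 to 80.7 CPM in controls (median 77.0) and from 27.3 to 63.4 CPM in NASH (median 57.5). The lowest values belonged to control 31 and NASH 20, each far below the rest of its group. With all animals the log2 fold change was -0.38 (SE 0.22, adjusted p = 0.162, edgeR). Without control 31 it was -0.51 with an adjusted p of 0.0295, without NASH 20 it was -0.24 with an adjusted p of 0.255, and without both animals, a choice made after seeing the data, it was -0.38 with an adjusted p of 0.00138.

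**Figure D4:**
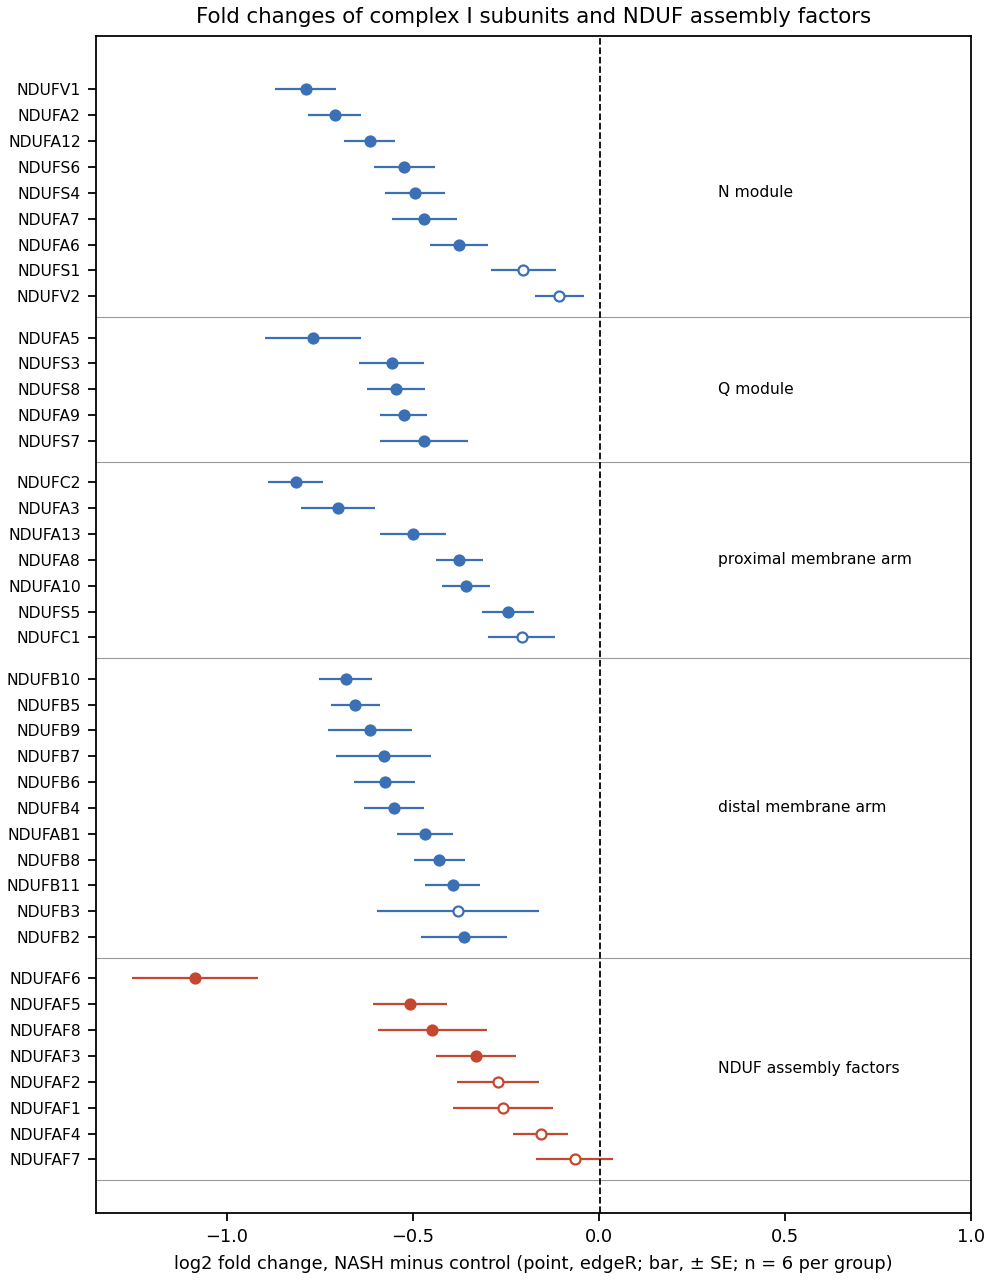
Log2 fold change of NASH against control (points, edgeR with TMM scaling) with its SE (bars) for 32 of the 33 complex I subunits (blue) and 8 NDUF assembly factors (red), 6 animals per group; filled points passed an adjusted p of 0.05 and the dashed line is the median of all genes. Subunits cluster near -0.52 with NDUFV2, NDUFS1, NDUFC1 and NDUFS5 nearest to 0, and assembly factors run from -1.09 to -0.07; with library size alone 13 of the subunits and 6 assembly factors change sign.

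Across functions, the core subunits and the supernumerary subunits were alike in their medians. Of 7 core subunits 5 fell, with a median of -0.55, and of 26 supernumerary subunits 24 fell, with a median of -0.51, against 26% of all symbols. For the core subunits library size alone gave 2 lower and 2 higher, against 7.66% and 63.9% of all symbols, and a median of -0.07. The difference between these classes was not tested. In single animals, the median deviation of the subunits from the control mean ran from -0.14 to 0.18 log2 in controls, and from -0.66 in NASH 9 to -0.41 in NASH 65 in the NASH group. No NASH animal was therefore within the range of the controls with this scaling.

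The NDUF assembly factors had fold changes from -1.09 for *NDUFAF6* to -0.07 for *NDUFAF7*, with *NDUFAF5* next to the lowest at -0.51. With TMM scaling 4 of 8 fell (*NDUFAF6*, *NDUFAF5*, *NDUFAF8* and *NDUFAF3*), 0 rose and 4 did not pass. Of all symbols 26% were called lower and 27.9% higher. The median log2 fold change of the 8 was -0.30, which turned to 0.17 with library size alone. Under library size alone 1 was lower and 2 were higher, against 7.66% and 63.9% of all symbols. Only *NDUFAF6* and *NDUFAF5*, 2 of the 8, had groups without overlap, against 15.3% of all symbols. The count of 4 became 2 without control 31 and NASH 20, over every row with at least 1 count, and at an adjusted p of 0.01.

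*NDUFAF6*, a factor related to phytoene synthases that acts early in building the Q module, had the lowest fold change of all 45 rows. *NDUFAF6* had control values of 26.0 to 59.4 CPM (median 34.6) and NASH values of 15.5 to 20.7 CPM (median 17.9). The controls varied by more than the NASH animals, with a SD of 11.7 against 1.94 CPM, and the 2 groups did not overlap. *NDUFAF6* fell by 1.09 on the log2 scale (SE 0.17, adjusted p = 0.000152, edgeR), and with library size alone it was still called lower at -0.60.

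*NDUFAF5* hydroxylates an arginine of *NDUFS7*. *NDUFAF5* stood at 12.2 to 16.1 CPM in the controls, median 13.1, and at 8.12 to 10.97 CPM in the NASH animals, median 9.50. The groups were apart, and it fell by 0.51 on the log2 scale (SE 0.10, adjusted p = 0.000801, edgeR). *NDUFAF8*, the partner that stabilises *NDUFAF5*, ran from 3.64 to 6.24 CPM in controls (median 4.43) and from 2.83 to 4.12 CPM in NASH (median 3.27). Its groups overlapped, and the log2 fold change came to -0.45 (SE 0.15, adjusted p = 0.0197, edgeR). Without control 31 and NASH 20 the adjusted p of *NDUFAF8* was 0.0753, and over every row with at least 1 count it was 0.0924.

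*NDUFAF3* and *NDUFAF4* work as a pair on the membrane-bound Q module. *NDUFAF3* had control values of 7.40 to 11.9 CPM (median 9.03) and NASH values of 6.77 to 8.30 CPM (median 7.42). The groups overlapped, and the log2 fold change was -0.33 (SE 0.11, adjusted p = 0.0193, edgeR). The call of *NDUFAF3* was lost with upper-quartile factors (adjusted p = 0.0604), over the rows kept by filterByExpr (0.0614), over every row with at least 1 count (0.136) and without control 31 and NASH 20 (0.0651). *NDUFAF4* stood at 19.6 to 26.0 CPM in the controls, median 21.2, and at 18.5 to 20.9 CPM in the NASH animals, median 19.1. Control 5 stood above the other controls, and the log2 fold change of -0.16 (SE 0.08) had an adjusted p of 0.0962 in edgeR.

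The other 3 NDUF assembly factors did not pass the test either. *NDUFAF2*, which resembles *NDUFA12* and holds its place until late in assembly, ran from 4.04 to 5.08 CPM in controls (median 4.72) and from 3.15 to 4.38 CPM in NASH (median 3.85). Its log2 fold change was -0.27 (SE 0.11, adjusted p = 0.0534, edgeR), close to the threshold. In 6 of 23 alternatives *NDUFAF2* passed it, with adjusted p-values over all alternatives from 0.0365 to 0.240. *NDUFAF1*, a member of the membrane arm assembly complex, had control values of 4.04 to 6.84 CPM (median 5.04) and NASH values of 3.67 to 5.08 CPM (median 4.51), and the log2 fold change came to -0.26 (SE 0.13, adjusted p = 0.122, edgeR). *NDUFAF7*, a protein arginine methyltransferase, stood at 6.79 to 8.82 CPM in the controls, median 7.80, and at 6.30 to 9.11 CPM in the NASH animals, median 7.24. Its groups lay on top of each other, and its log2 fold change was -0.07 (SE 0.10, adjusted p = 0.623, edgeR).

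Summed over the 8 genes, the assembly factors had a lower mean in NASH, and *NDUFAF6* made up much of that difference. The sum ran from 95.8 to 133 CPM in controls (mean 105 ± 14.3, SD, n = 6) and from 70.5 to 76.1 in NASH (mean 73.6 ± 2.11, SD, n = 6), a difference of -30.2%. Without *NDUFAF6* the mean went from 66.8 to 55.4 CPM, a difference of -17.0%. The ratio of summed subunits to summed assembly factors needs no scaling factor. It ran from 19.7 to 29.6 in controls and from 23.8 to 25.5 in NASH, so the NASH range lay inside that of the controls. With *NDUFAF6* left out, a choice made after seeing its values, the ratio ran from 35.5 to 41.5 in controls and from 31.9 to 35.3 in NASH, without overlap.

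Complex I assembly also needs proteins with other names, of which 11 of 13 listed were in the table. Only *AIFM1* and *FOXRED1* passed the test, which is 18.2% of the list against 26% of all symbols called lower, and the median over the 11 was -0.03. Under library size alone 0 were lower and 9 higher, against 7.66% and 63.9% of all symbols, and the median was 0.45. *AIFM1*, the apoptosis-inducing factor that also helps import of some respiratory chain proteins, had 77.0 ± 10.5 CPM in controls and 50.1 ± 2.55 in NASH (SD, n = 6), with a log2 fold change of -0.62 (adjusted p = 8.06e-05, edgeR) and groups apart. *FOXRED1*, an oxidoreductase-like assembly factor, had 32.3 ± 4.04 CPM in controls and 24.6 ± 5.51 in NASH (SD, n = 6), with a log2 fold change of -0.40 (adjusted p = 0.0313, edgeR). The members *ACAD9*, *TMEM126B*, *TIMMDC1* and *TMEM186*, which act with *NDUFAF1* on the membrane arm, had log2 fold changes of 0.01, -0.15, -0.21 and 0.04, none past the threshold. *NUBPL*, which helps deliver iron-sulphur clusters to complex I, had the highest value at 0.18 (adjusted p = 0.45, edgeR). Over all 19 assembly factors, with NDUF names or not, 6 fell, 0 rose and 13 did not pass, and the median was -0.16. These 6 are 31.6% of the 19, near the 26% of all symbols called lower. With library size alone 1 was lower and 11 were higher, against 7.66% and 63.9% of all symbols.

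The NDUF names outside complex I gave 2 different pictures. *NDUFA4*, now counted as a subunit of cytochrome c oxidase, complex IV, ran from 224 to 271 CPM in controls (median 262) and from 159 to 186 CPM in NASH (median 172). The groups were apart, and *NDUFA4* fell by 0.57 on the log2 scale (SE 0.07, adjusted p = 1.14e-05, edgeR). With library size alone its log2 fold change was -0.10 and it did not pass (adjusted p = 0.179, edgeR). *NDUFA4L2*, a relative of *NDUFA4* known as a gene induced by hypoxia, had control values of 2.76 to 7.34 CPM (median 6.17) and NASH values of 2.86 to 10.98 CPM (median 6.32). The groups overlapped, and the log2 fold change of 0.28 (SE 0.38) had an adjusted p of 0.549 in edgeR. Leaving out single animals moved the value of *NDUFA4L2* to between 0.07 (without NASH 2, the highest animal) and 0.44 (without NASH 9), and it did not pass in any of these fits. The row *NDUFS4.1*, whose locus was not settled, was read at 0.963 to 1.53 CPM in NASH and at up to 2.06 CPM in controls, with 0 counts in control 5, which allows a level of up to 0.214 CPM (3 counts, counting error only). Its log2 fold change of -0.40 (SE 0.46) had an adjusted p of 0.492, and without control 5 it was -0.64 with an adjusted p of 0.00713, both by edgeR.

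The spread between animals of the same group was compared next. The median SD of log2 CPM within groups was 0.13 over the subunits, 0.17 over the NDUF assembly factors and 0.22 over all genes. The subunits were read at higher counts, with a median mean log2 CPM of 5.83 against 4.40 over all genes and 2.998 over the assembly factors. After each group's mean had been taken away, a subunit's profile over the 12 animals had a median Pearson correlation of 0.60 with the mean of the other subunits. The values ran from -0.36 for *NDUFB3* to 0.86 for *NDUFB11*. For NDUF assembly factors against the subunits the median was 0.09, with *NDUFAF3* at 0.92, *NDUFAF8* at 0.82 and *NDUFAF6* at -0.31, and for all other genes it was 0.02. The non-member genes with the most similar profiles were *SSU72* at 0.98, *COX8A* and *COX5B*, both subunits of complex IV, at 0.92 each, *CROCC* at 0.91 and the count row shared by *POLR2J* and its copies at 0.91. Within an animal all genes share its library depth and scaling factor, and no test is given for these correlations.

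Genes that work beside complex I were described by their counts. Complex II, succinate dehydrogenase, is the other entry of electrons from the citric acid cycle. Of 7 genes of its subunits and assembly factors together 6 fell, with a median log2 fold change of -0.46 that was 0.01 with library size alone. These 6 are 85.7% of the list, against 26% of all symbols, and with library size alone 2 were lower and 1 higher, against 7.66% and 63.9%. *SDHC*, a membrane anchor, was lowest at -0.76, and *SDHAF4*, an assembly factor, was at -0.01 and did not pass. In iron-sulphur cluster assembly, which supplies the clusters of the matrix arm, 9 of 13 genes fell, with a median of -0.41, or 0.06 with library size alone. These 9 are 69.2% of the list, against 26% of all symbols, and with library size alone 4 were lower and 3 higher, against 7.66% and 63.9%. *HSCB*, a co-chaperone of cluster transfer, was lowest at -0.81, while *IBA57* (-0.39) and *FDX2* (-0.25) were among the 4 that did not pass. The scaffold *ISCU* and the sulphur donor *NFS1* had log2 fold changes of -0.70 and -0.78, both with groups apart.

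Among 14 other enzymes of NAD and electron transfer, 8 fell, 1 rose and 5 did not pass, with a median of -0.41, or 0.06 with library size alone. The 8 are 57.1% of the list, against 26% of all symbols lower (27.9% were higher), and with library size alone 5 were lower and 3 higher, against 7.66% and 63.9%. *GPD2*, the mitochondrial glycerol 3-phosphate dehydrogenase, which hands electrons to ubiquinone without complex I, was the one that rose, from 20.8 ± 3.72 CPM in controls to 43.2 ± 5.77 in NASH (SD, n = 6). Its groups were apart, and the log2 fold change came to 1.05 (SE 0.13, adjusted p = 2.05e-05, edgeR), which was 1.54 with library size alone. *ETFA*, *ETFB* and *ETFDH*, which carry electrons from fatty acid oxidation to ubiquinone and likewise bypass complex I, fell by 0.85, 1.01 and 0.51 on the log2 scale, and with library size alone the values were -0.37, -0.54 and -0.04. *AIFM2*, a quinone reductase also called FSP1, was lowest at -1.30 (SE 0.25, adjusted p = 0.00078, edgeR). Its groups overlapped (24.2 ± 8.90 CPM in controls and 9.82 ± 2.45 in NASH, SD), and with library size alone the value was -0.82.

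Lists of the general machinery of mitochondria had medians nearer to 0. Of 14 genes of the mitochondrial membranes and protein import 5 fell (35.7%, against 26% of all symbols), with a median of -0.18, from *TIMM23*, the channel of the inner membrane, at -0.88 to *MFN2*, a fusion protein, at 0.16 (adjusted p = 0.224, edgeR). With library size alone 1 of these genes was lower and 10 were higher, against 7.66% and 63.9% of all symbols. The median was then 0.30, against 0.48 over all genes. Of 8 regulators of mitochondrial biogenesis, *ESRRA* (-0.43) and *TFAM* (-0.24) fell and *PPRC1* (0.62) rose, with a median of -0.13 over the list. The 2 lower genes are 25% of the list, no more than the 26% of all symbols, of which 27.9% were called higher. With library size alone 0 were lower and 3 higher, against 7.66% and 63.9% of all symbols, and the median was 0.34. *TFAM* was then called higher at 0.24 (adjusted p = 0.0172, edgeR), below the median of 0.48 over all genes. *PPARGC1A*, the coactivator best known for driving mitochondrial genes, had 12.4 ± 5.25 CPM in controls and 11.7 ± 1.38 in NASH (SD, n = 6), and the log2 fold change came to -0.07 (SE 0.23, adjusted p = 0.82, edgeR). These lists were compared by counts and medians only, and the differences between lists were not tested.

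**Figure D5:**
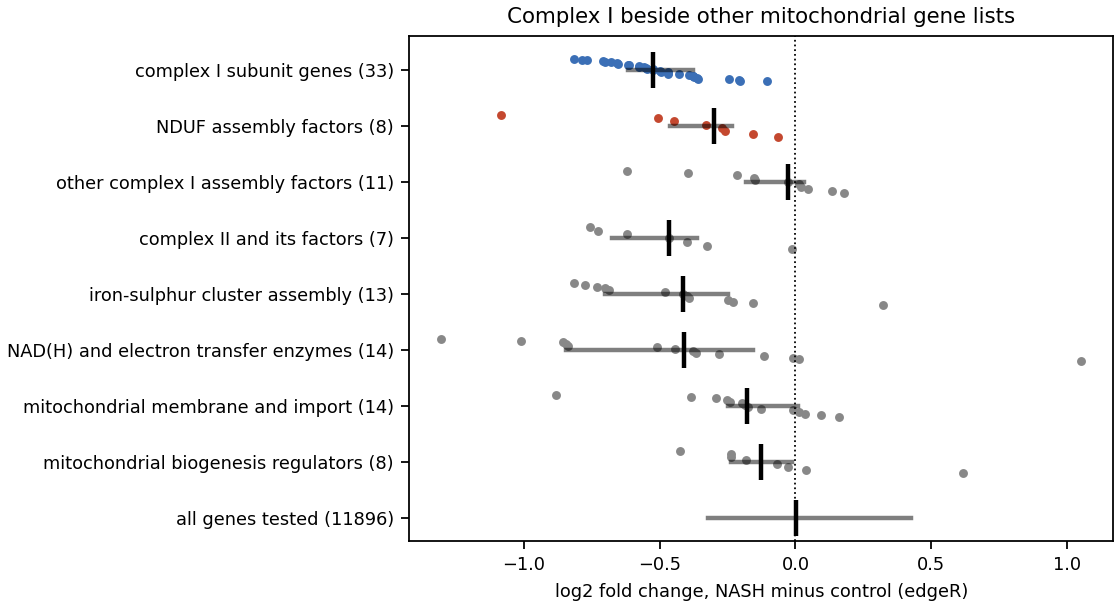
Log2 fold change of NASH against control for each gene (points) of 8 lists, with the median (vertical mark) and the quartiles (grey bar) of each list and of all 11896 symbols; the number of genes is in parentheses. Complex I subunits (median -0.52), complex II with its assembly factors (-0.46) and iron-sulphur cluster assembly (-0.41) lie left of all genes (0.002). Other complex I assembly factors (-0.03) lie near all genes. With library size alone the median of all genes moves to 0.48.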

How the data were processed

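The authors deposited raw counts per locus from poly(A)-enriched, single-read libraries, made with Trimmomatic 0.38.0, HISAT2 2.1.0 on Cavpor3.0 without multimapped reads, and StringTie 1.3.6. They also deposited log2 values, the rlog transform of DESeq2, for 11896 symbols with totals of at least 200 counts. The count table has no symbols, so symbols were matched to rows through a repeat of that transform (largest difference 8.35e-07). In all, 11031 rows stood behind the symbols, and 1515 symbols shared a row. Groups came from the sample titles, which name no batch.

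Counts were tested with edgeR 4.0.16 in R 4.3.3 (quasi-likelihood, robust, TMM, whole-table library size, 6 against 6). P-values were Benjamini-Hochberg adjusted over all 11896 symbols, two-sided, with a threshold of 0.05. The SE is the absolute log2 fold change over the square root of F. CPM uses TMM-scaled library sizes and log2 CPM a prior count of 2. CPM is not length-corrected, so levels were not compared between genes. Alternatives were RLE, upper-quartile and no composition factors, DESeq2 1.42.0, limma-voom and limma 3.58.1 on rlog values, other row sets, a threshold of 0.01 and each animal left out. The procedures were tested on simulated data. Those data held no shift in composition like the one between these groups, so they say nothing about the choice of scaling. Members and gene lists were chosen with earlier results of these data known.

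The rule named every NDUF row, with full values for the core subunits (a few genes are left out of the text), *NDUFAB1*, the assembly factors, *NDUFA4*, *NDUFA4L2* and the supernumerary subunits with the 5 lowest and 3 highest fold changes. In other lists the lowest and highest genes and those against the majority were named. *ISCU*, *NFS1*, *ETFA*, *ETFB*, *ETFDH* and the assembly factors acting with *NDUFAF1* were chosen after their values were seen. Figures were drawn with matplotlib. No column of the tables was without a sample.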

Additional observations from a re-analysis of the deposited data

Results flagged for a closer look

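In each group of 6 animals the highest and the lowest log2 CPM of every distinct NDUF row were checked for a wide gap to the rest of the group. Of 88 groups checked, 10 had such a value, and chance gives about 1 in 20. Control 31 was high in *NDUFA8* (6.23, others up to 6.02) and *NDUFS3* (5.94, others up to 5.58) and low in *NDUFB3* (5.195, others from 6.06). NASH 20 was low in *NDUFB3* as well (4.775, others from 5.81). NASH 9 was low in *NDUFAB1* (5.41, others from 5.59), *NDUFA12* (5.06, others from 5.23) and *NDUFA5* (4.90, others from 5.47). Control 5 was high in *NDUFAF4* (4.705, others up to 4.45) and at 0 counts in *NDUFS4.1* (-3.69, others from 0.65), where the log2 value is set by the prior count. Control 56 was low in *NDUFA4* (7.80, others from 8.01).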

How the results depend on the processing

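With library size alone 6 subunit genes were lower and 4 higher, and their median was -0.048. Of the NDUF assembly factors 1 was lower and 2 were higher, with a median of 0.17. Of all symbols 7.66% were called lower and 63.9% higher with that scaling. All genes then had a median of 0.48, and the subunits (-0.52) and assembly factors (-0.30) lay as far below it as with TMM, which holds by construction because scaling factors move all genes by nearly the same amount. Signs turned in *NDUFA7* (0.004), *NDUFAB1* (0.01), *NDUFAF8* (0.029), *NDUFB8* (0.047), *NDUFS4.1* (0.065), *NDUFB11* (0.082), *NDUFB3* (0.10), *NDUFA8* (0.10), *NDUFA6* (0.10), *NDUFB2* (0.11), *NDUFA10* (0.12), *NDUFAF3* (0.14), *NDUFAF2* (0.20), *NDUFAF1* (0.22), *NDUFS5* (0.23), *NDUFS1* (0.27), *NDUFC1* (0.27), *NDUFAF4* (0.32), *NDUFV2* (0.37) and *NDUFAF7* (0.41). *NDUFAF7* was also at 0.008 with upper-quartile factors and at 0.021 over every row with at least 1 count, and *NDUFS4.1* at 0.094 with limma-voom. With limma on the rlog values, which are shrunken, the medians were -0.321 (-0.324 relative to all genes) for subunits and -0.131 (-0.134) for assembly factors. The count of 4 lower assembly factors became 2 over every row with at least 1 count (median -0.215), at an adjusted p of 0.01, and without control 31 and NASH 20, an alternative added after seeing the data. The cause was not tested. Outside library size alone, 28 of 33 subunits kept their call and 33 of 33 their direction in every alternative. No paired analysis was possible because the groups share no animal numbers. *NDUFAF1*, *NDUFAF2* and *NDUFAF8* had totals of 1482, 1280 and 1182 counts, with SEs of 0.13, 0.11 and 0.15. *NDUFAF6*, with 7809 counts, had a SE of 0.17, and the part of low counts in these SEs was not tested.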
